A study of Arabidopsis thaliana with 16 samples.

Results

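Intergenic wild-type H2A.Z sites are positions outside genes at which H2A.Z exceeded H3 in both wild-type replicates. They were chosen by the wild-type lists themselves: a summit of wild-type replicate 1, the single position of highest H2A.Z enrichment within a peak, counted when a summit of replicate 2 lay within 200 bp and the replicate 1 position lay in no annotated gene of any type, pseudogenes and non-coding RNA genes included. This rule gave 993 intergenic sites among 21659 common wild-type sites (4.58%), and the other 20666 common sites were genic. The tested genotypes were *mbd9-3* and *arp6-1*, each a T-DNA insertion line, and the double mutant *arp6-1 mbd9-3*, compared with wild type. All 4 genotypes were Columbia-0 shoots taken 13 days after germination from plates under long days, whole shoots rather than a single cell type, with 2 replicates per genotype grown on separate plates. Each replicate was divided between an H2A.Z and an H3 immunoprecipitation, and H3 stands in every H2A.Z over H3 list for the nucleosomes present. For each replicate there is a list of H2A.Z over H3 summits, a list of summits at which wild-type H2A.Z exceeded mutant H2A.Z, and a list in which *arp6-1* was higher in H2A.Z than *arp6-1 mbd9-3*. Each summit carries a score, the −log10 of its q value, with a minimum of 2 in every list.

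H2A.Z is a histone variant that replaces H2A in the nucleosome. In plants it is deposited by the SWR1 complex, of which ARP6 is a conserved subunit, and MBD9 is a methyl-CpG-binding domain protein that interacts with that complex. H2A.Z is best known from the nucleosomes just after transcription start sites and from the bodies of responsive genes, so sites outside all genes are the less studied share of its distribution. In whole shoots, fewer cells with H2A.Z at a site and less H2A.Z per cell cannot be told apart.

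In the text below a site is called kept in a mutant when a summit of that mutant over H3 lay within 200 bp, and lost when a summit of a wild type over mutant list lay within 200 bp. A site with a summit in the *arp6-1* over *arp6-1 mbd9-3* lists has further loss. The over H3 lists of the mutants share no library with the rule. The loss lists contain the same wild-type H2A.Z libraries that chose the sites and share them with each other, so their values are given as a description.

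The sequences of 6 intergenic sites show the range of the group, and positions are those of TAIR10.1, on the forward strand. They are the site of highest wild-type score, a site in both *arp6-1 mbd9-3* lists before *ACT2*, a site lost in *mbd9-3*, a site with further loss next to *SNC1*, and 2 of the 3 sites farthest from any gene. Each run reaches up to 100 bases on either side of the summit and stops at the boundary of a gene. Capitals mark matches on either strand to the 7 motifs searched, which were the TATA box TATAAA, the G-box core CACGTG, the telo box AAACCCTA, the site II element TGGGCC, the repeat GAGAGA, the box CCAAT bound by NF-Y factors, and a run of 8 A. Matches of different motifs or of the same motif may overlap.
chr1:671535-671660: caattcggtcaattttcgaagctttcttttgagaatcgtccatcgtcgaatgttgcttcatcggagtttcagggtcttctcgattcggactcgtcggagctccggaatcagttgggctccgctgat
chr3:6474200-6474400: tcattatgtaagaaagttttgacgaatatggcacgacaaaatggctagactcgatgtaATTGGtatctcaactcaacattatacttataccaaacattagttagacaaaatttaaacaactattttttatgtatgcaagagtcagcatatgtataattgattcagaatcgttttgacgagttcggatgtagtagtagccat
chr3:5362325-5362525: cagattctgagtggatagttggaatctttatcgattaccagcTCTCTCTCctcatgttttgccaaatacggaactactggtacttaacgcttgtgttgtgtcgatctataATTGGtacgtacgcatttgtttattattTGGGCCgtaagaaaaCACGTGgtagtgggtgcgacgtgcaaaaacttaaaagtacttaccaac
chr4:9498918-9499118: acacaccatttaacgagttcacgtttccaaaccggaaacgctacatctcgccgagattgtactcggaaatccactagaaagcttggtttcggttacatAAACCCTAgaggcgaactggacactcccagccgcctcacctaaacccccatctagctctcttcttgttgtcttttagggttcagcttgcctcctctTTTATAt
chr1:11731178-11731378: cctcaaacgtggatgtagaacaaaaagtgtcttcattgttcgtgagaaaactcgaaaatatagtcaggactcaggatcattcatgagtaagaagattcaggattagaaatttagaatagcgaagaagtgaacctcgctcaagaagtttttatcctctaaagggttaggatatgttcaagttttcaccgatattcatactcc
chr3:10603621-10603821: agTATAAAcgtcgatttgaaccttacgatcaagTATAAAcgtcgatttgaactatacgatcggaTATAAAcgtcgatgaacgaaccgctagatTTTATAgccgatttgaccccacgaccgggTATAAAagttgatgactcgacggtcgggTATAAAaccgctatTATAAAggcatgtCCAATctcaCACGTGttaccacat
The run before *ACT2* and the run of the farthest site were 68.2% and 63.2% A or T, against 50.8% at the site of highest score. The last run held 6 copies of TATAAA on the forward strand, 1 on the reverse strand and 19 CG dinucleotides, against 12 at the site of highest score, whose run is shorter. These matches describe the letters of the windows and are no evidence of a bound factor.

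Intergenic sites were few for the space they had. Bases in no gene made up 35.9% of the nuclear genome, but 4.58% of the common sites lay there. Of 1828 intergenic summits of wild-type replicate 1, 54.3% had a replicate 2 summit within 200 bp, against 73.4% of the genic summits. The 993 sites numbered 266, 146, 214, 145 and 222 on chromosomes 1 to 5. Pericentromeric bins of 500 kb, taken as those with at least as many pseudogenes as protein-coding genes, held 4.73% of the sites and 20.1% of the bases in no gene. The nearest gene was a median of 440 bp away, with a range of 1 to 6840 bp. The boundary of a gene therefore decides the class of some sites: 53 sites lay outside a gene by at most 25 bp, with a median score of 4.84, and 64 genic sites lay within 25 bp of a gene boundary, also with a median score of 4.84. At 69 sites the nearest summit of replicate 2 fell inside a gene.

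Most intergenic sites stood alone in their gap between genes. They occupied 888 gaps between genes. The gap around a site had a median length of 1964 bp over the 993 sites, against 755 bp over all 31625 gaps of the annotation. The first median counts a gap once per site, and a longer gap offers more positions for a site. The 2 medians therefore do not show a preference for wide gaps. Only 92 gaps held 2 or more sites and 9 held 3 or more. The highest number in a gap was 4, between *BPEp* and *CW14* on chromosome 1 and between *CYP71A16* and *AT5G00580* on chromosome 5. Since 20 neighbouring pairs lay no more than 200 bp apart, some sites share a summit in other lists. For 675 sites (68.0%) there was no genic common site within 1000 bp, and 111 sites (11.2%) had one within 500 bp.

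The nearest gene boundary was a start for 554 sites and an end for 439 sites. By the strands of both flanking genes, 558 sites lay in tandem gaps, 304 in divergent gaps, where both neighbours are transcribed away from the site, 129 in convergent gaps and 2 beyond the last gene of chromosome 5. The bases in no gene were not counted by nearest boundary or by kind of gap, so these counts show no preference. The nearest gene was protein coding for 734 sites, a lncRNA gene for 105, a transcribed pseudogene for 53 and another pseudogene for 50. Relative to the nearest protein-coding start, 73 intergenic sites lay in the last 100 bp before the start and 41 in the 100 bp before that, with 51 or 52 in each of the next 3 steps of 100 bp. Genic sites instead peaked after the start, with 3335 and 3342 sites in the steps from 200 to 299 bp and from 300 to 399 bp. By the rule intergenic sites cannot lie inside a gene, so this contrast is no separate result. The counts per step are not set against the bases available there.

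**Figure D1:**
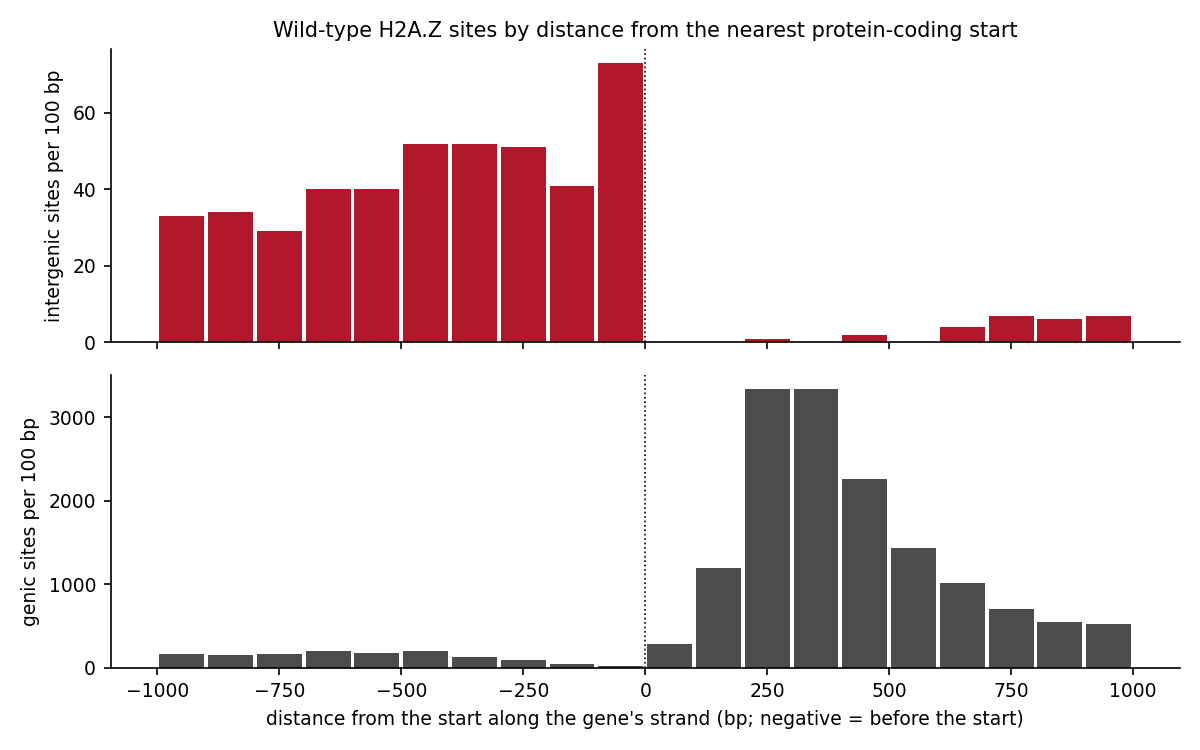
Number of intergenic sites (top, red) and genic sites (bottom, grey) in steps of 100 bp by distance from the nearest protein-coding start, along the strand of that gene. Intergenic sites spread over the 1000 bp before the start with 73 in the last step, while genic sites peak at 3342 between 300 and 399 bp after it, and the vertical scales differ. The rule keeps intergenic sites out of genes.

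The wild-type scores, which the rule used in part, were lower at intergenic than at genic sites. In replicate 1 the median score was 5.54 at intergenic sites (range 2.01 to 25.5) and 7.32 at genic sites. In replicate 2 it was 5.0 at intergenic sites (range 2.0 to 19.2) and 6.11 at genic sites. Of the intergenic sites, 67.2% lay below the median of all common sites for the lower score of both replicates. Just inside the 200 bp limit between replicates, at 176 to 200 bp, there were 31 intergenic summits with a median replicate 1 score of 4.32, and just outside it, at 201 to 225 bp, there were 17 with a median of 3.81. Since the kept share was higher at sites of higher wild-type score, shares of genic sites are given also after weighting them to the wild-type score deciles of the intergenic sites.

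The base composition of intergenic sites, which the rule did not use, lay between that of genic sites and that of other sequence outside genes. In the 201 bases around the summit the median share of A or T was 60.2% at intergenic sites (middle 50% of sites 57.2 to 62.7%), 54.7% at genic sites and 69.7% in all 183842 windows of that length outside genes. CG dinucleotides followed the reverse order, with medians of 2.99 per 100 bases at intergenic sites, 4.48 at genic sites and 1.49 in all windows outside genes. The enrichment of G and C was local: A or T averaged 59.3% in the first 20 bp from the intergenic summits and 66.8% at 500 bp, against 53.8% and 64.5% at genic sites. The TATAAA motif was found in 15.0% of the intergenic windows, 7.56% of the genic windows and 40.2% of all windows outside genes. A run of 8 A or 8 T was found in 3.32%, 1.95% and 21.5% of these windows, and GAGAGA in 24.8%, 29.4% and 11.5%. The other motifs did not lie in between. CCAAT was found in 34.9% of the intergenic windows, 33.5% of the genic windows and 34.9% of all windows outside genes. The shares were 4.43%, 3.45% and 2.83% for AAACCCTA and 1.61%, 2.18% and 3.51% for TGGGCC. The part of base composition in the other results was not tested.

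**Figure D2:**
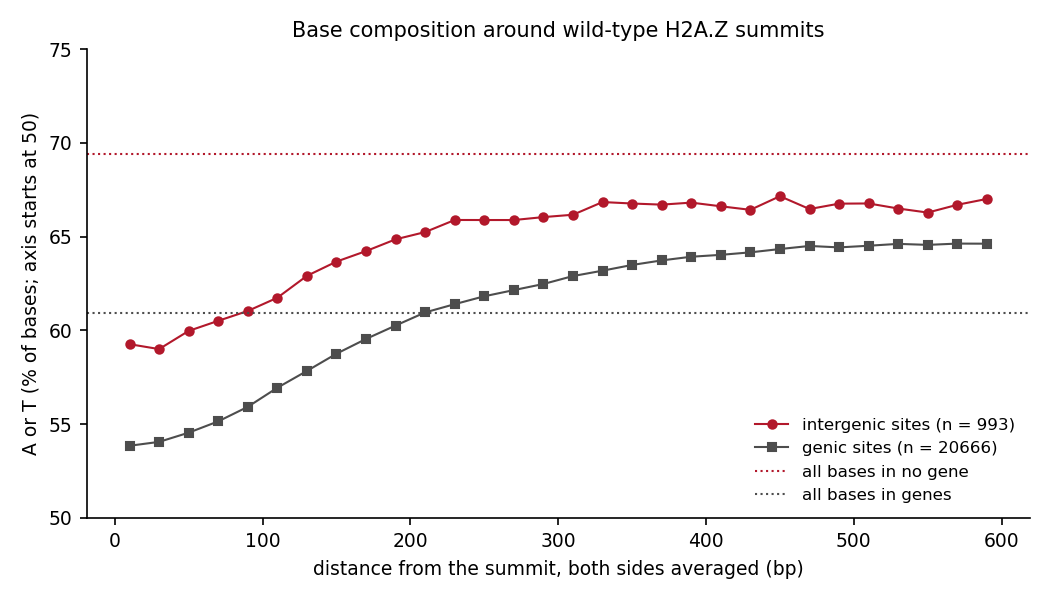
Mean share of A or T (%) by distance from the summit, both sides averaged in steps of 20 bp, for 993 intergenic sites (red circles) and 20666 genic sites (grey squares), with dotted lines for all bases in no gene (69.4%) and all bases in genes (61.0%). Both kinds of site are poorer in A or T near the summit than farther away, and intergenic sites start at 59.3%, against 53.8% at genic sites.

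Intergenic sites kept H2A.Z less often than genic sites in all 6 mutant libraries. In *mbd9-3*, 285 sites (28.7%) had a summit in replicate 1 and 330 (33.2%) in replicate 2, against 53.8% and 60.3% of genic sites and 52.6% and 59.1% of all common sites. Intergenic sites averaged 31.0% ± 3.20 and genic sites 57.0% ± 4.62 (SD, n = 2 replicates), without overlap. In *arp6-1*, 72 sites (7.25%) were kept in replicate 1 and 191 (19.2%) in replicate 2, against 15.0% and 27.1% of genic sites and 14.7% and 26.7% of all common sites. These *arp6-1* replicates differed from each other by more than the 2 kinds of site did, so that only values within a replicate can be set side by side. In *arp6-1 mbd9-3*, 16 sites (1.61%) and 17 sites (1.71%) were kept, against 4.50% and 4.61% of genic sites and 4.36% and 4.48% of all common sites.

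Over all 6 mutant libraries together, the intergenic share was lower than the genic share by a mean of 12.3 percentage points, with differences of -27.1 to -2.88 points, lower in 6 of 6 libraries (exact two-sided sign-flip permutation test, p = 0.03125, the smallest p that 6 libraries allow). When genic sites were weighted to the score deciles of the intergenic sites the mean difference was -6.61 points, with a range of -18.7 to -0.0191, again lower in 6 of 6 libraries (exact permutation p = 0.03125). The same sites, chosen from the same wild-type libraries, enter all 6 differences, which are therefore not independent. The p-value does not measure the size of the difference. Between the wild-type replicates, too, intergenic summits of replicate 1 recurred less often than genic ones, 54.3% against 73.4%. The test holds no wild-type library as a reference, so it cannot separate the mutations from this lower recurrence, whose part was not tested. After weighting nearly all of the difference that remained was in *mbd9-3*, with -16.0 and -18.7 points in its replicates. It was -2.14 and -0.0191 points in *arp6-1* and -1.43 and -1.39 points in *arp6-1 mbd9-3*. Differences between genotypes were not tested, since 2 replicates against 2 cannot give an exact p below 0.333.

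**Figure D3:**
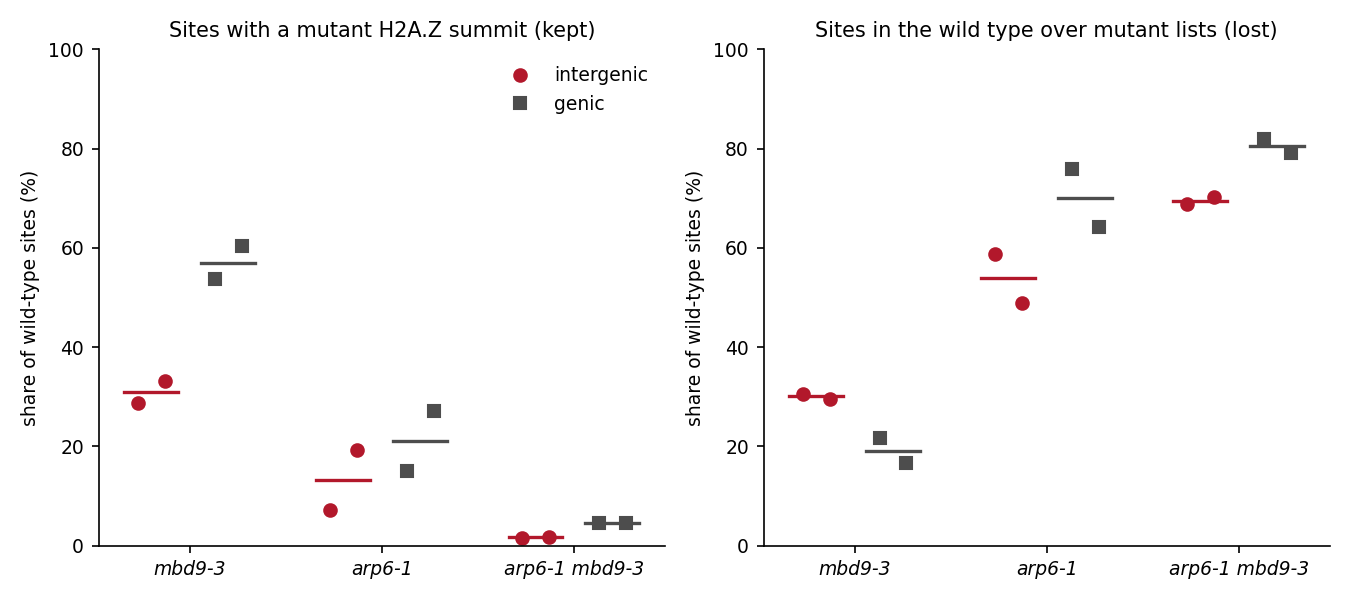
Share of wild-type sites (%) with a mutant summit over H3 (left) or in the wild type over mutant list (right), for intergenic sites (red circles, left of each pair) and genic sites (grey squares), with 1 point for each replicate and a line at the mean. Intergenic sites are below genic sites everywhere except in the loss lists of *mbd9-3*, where they lie at 30.5 and 29.6%, above 21.6 and 16.6% of genic sites.

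Requiring both replicates gave 232 intergenic sites kept in *mbd9-3* (23.4%, 95% exact Clopper-Pearson interval 20.8 to 26.1%), against 46.4% of genic sites and 45.3% of all common sites. There were 59 kept in *arp6-1* (5.94%, 4.55 to 7.60%), against 12.1% of genic sites and 11.9% of all common sites. Only 3 were kept in *arp6-1 mbd9-3* (0.302%, 0.0623 to 0.880%), against 1.62% of genic sites and 1.56% of all common sites. These intervals cover counting error over sites only, and the sequencing depth behind the lists is unknown. The mutant lists share no library. Of the 59 sites kept in *arp6-1*, 45 (76.3%) were also kept in *mbd9-3*, against 89.8% of the genic sites kept in *arp6-1* and 89.5% of all common sites kept there. These 45 are 19.4% of the 232 sites kept in *mbd9-3*, against 23.5% of the genic sites and 23.4% of all common sites kept there. No mutant over H3 list held a summit for 552 intergenic sites (55.6%), against 29.5% of genic sites.

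The loss lists, in which H2A.Z libraries of 2 genotypes are compared directly, went the same way as the kept shares in *mbd9-3*. There, 303 intergenic sites (30.5%) were lost in replicate 1 and 294 (29.6%) in replicate 2, against 21.6% and 16.6% of genic sites and 22.0% and 17.2% of all common sites. In both lists 195 sites were lost (19.6%, interval 17.2 to 22.2%), against 10.2% of genic sites and 10.7% of all common sites. Intergenic sites thus appeared more often than genic sites in the *mbd9-3* loss lists, by 8.92 and 13.0 points, and by 9.35 and 13.3 points with genic sites weighted by score. Of the 195 lost sites, 185 had no summit in either *mbd9-3* over H3 list. Conversely, among the 610 intergenic sites with no *mbd9-3* summit, 262 were in neither loss list, so that the absence of a summit and a called loss are separate readings. The matching counts of genic sites are not given here, so these counts show nothing particular to intergenic sites.

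In the other loss lists the intergenic sites appeared less often than the genic sites, although they were also kept less often in these mutants. In *arp6-1*, 58.8% and 48.9% of intergenic sites were lost in the replicates, against 75.9% and 64.2% of genic sites and 75.1% and 63.5% of all common sites. In both *arp6-1* lists 364 sites (36.7%) were lost, against 56.8% of genic sites and 55.9% of all common sites. In *arp6-1 mbd9-3*, 68.8% and 70.2% of intergenic sites were lost, against 81.9% and 79.1% of genic sites and 81.3% and 78.7% of all common sites. In both of these lists 553 sites (55.7%) were lost, against 72.1% of genic sites and 71.3% of all common sites. With genic sites weighted by score the differences in both lists were -13.9 points in *arp6-1* and -7.54 points in *arp6-1 mbd9-3*. Per replicate the weighted differences were -12.0 and -10.3 points in *arp6-1*, and -6.77 and -1.73 points in *arp6-1 mbd9-3*. How the authors scaled the H2A.Z libraries of different genotypes to each other is not given in the sources used here, and its part in these shares was not tested.

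A similar contrast was present in the full lists, which also hold summits away from the chosen sites. These lists include the summits counted above and the same libraries, so they are no independent check. Of the summits in the *mbd9-3* loss lists 11.8% in replicate 1 and 15.6% in replicate 2 lay in no gene, which is 994 of 8419 and 933 of 5973 summits. In the *arp6-1* loss lists the shares were 4.49% and 4.43%, and in the *arp6-1 mbd9-3* loss lists 4.99% and 5.38%. Over H3, 2.84% and 3.05% of the *mbd9-3* summits lay in no gene, against 6.10% and 5.60% of the wild-type summits. For *arp6-1* the over H3 lists gave 2.69% and 4.38%, and for the double mutant 1.93% and 1.98%.

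By wild-type score, the intergenic shortfall of kept sites in *mbd9-3* was found in 10 of 10 deciles of the common sites. In the lowest decile 7.26% of 179 intergenic sites were kept, against 20.4% of genic sites, and in the highest decile 87.2% of 39 intergenic sites, against 90.5% of genic sites. The loss in *mbd9-3* was more frequent at intergenic sites in 8 of 10 deciles, from 17.9% against 6.43% of genic sites in the lowest decile to 5.13% against 7.90% in the highest. With wild-type scores of at least 10 in both replicates, which leaves 45 intergenic sites, the difference in lost share turned to -1.55 points, whereas it was 6.62 points with scores of at least 5. For *arp6-1* the kept shares of both kinds of site ran together, with intergenic sites higher in 3 of 10 deciles, at 46.2% against 47.2% of genic sites in the highest decile.

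**Figure D4:**
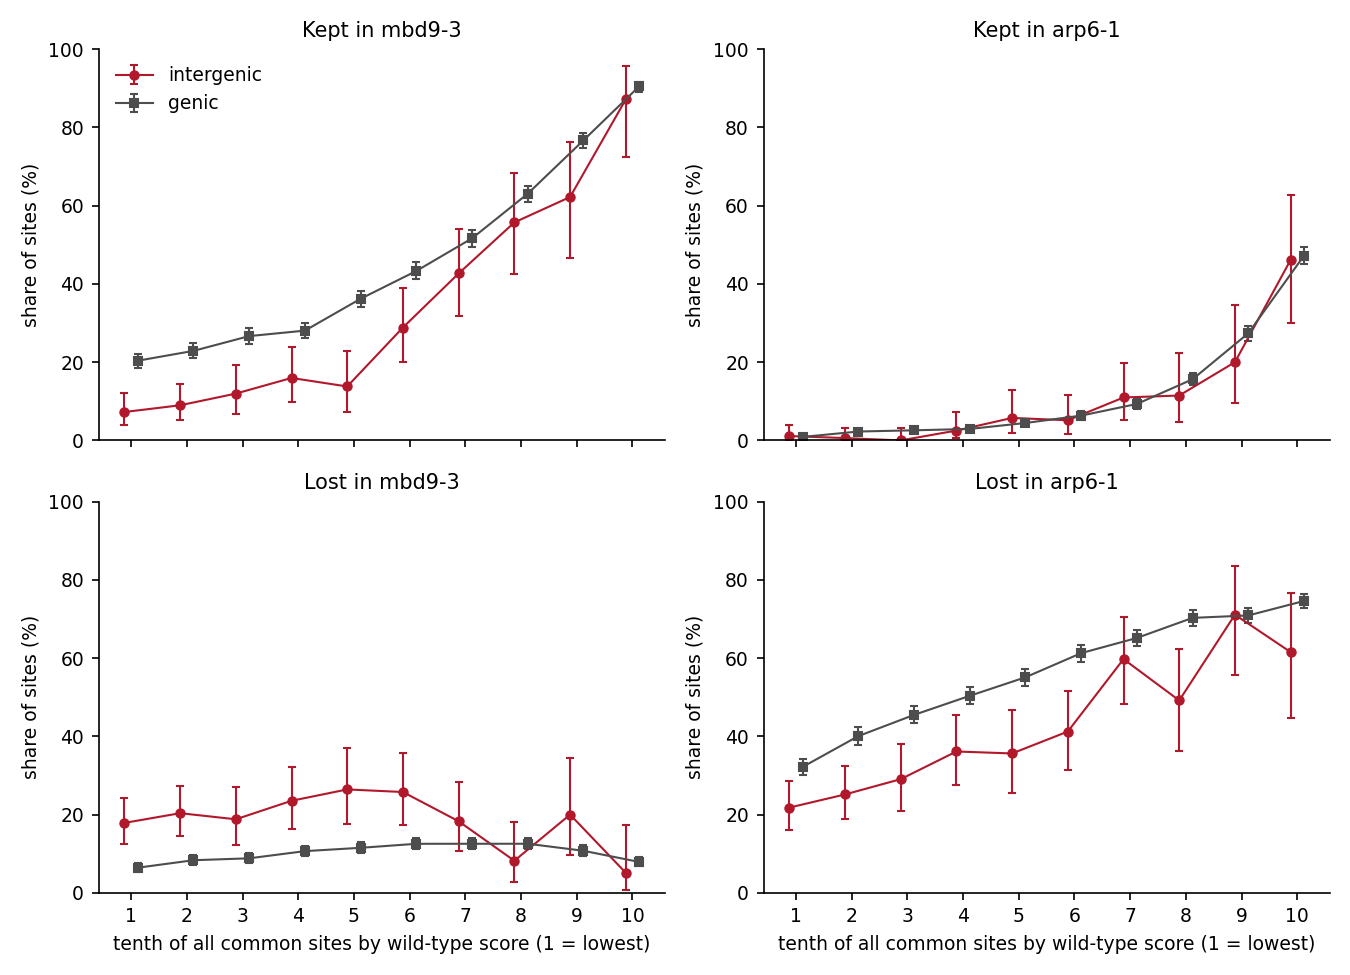
Share of sites (%) kept (top) and lost (bottom) in both lists of *mbd9-3* (left) and *arp6-1* (right), by decile of all common sites ordered by the lower wild-type score, for intergenic (red circles) and genic sites (grey squares), with 95% exact intervals. Intergenic sites are below genic sites in all deciles for kept in *mbd9-3*, above them in 8 of 10 for lost in *mbd9-3*, and close to them for kept in *arp6-1*.

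Among intergenic sites, H2A.Z in *mbd9-3* varied with the distance from the nearest gene. Of 191 sites over 1000 bp from any gene, 16.2% were kept in both *mbd9-3* lists and 35.6% (interval 28.8 to 42.8%) were in both loss lists. Of 166 sites within 100 bp of a gene, 33.7% were kept and 7.83% (4.23 to 13.0%) were lost. Per replicate, the lost shares were 47.1% and 48.7% at the far sites and 15.7% and 22.3% at the close sites. The distances in between gave values in between, with 11.2% lost in both lists up to 250 bp, 16.7% up to 500 bp and 23.1% up to 1000 bp. Far sites had a lower median score, 3.65 against 4.52 at close sites, for the lower score of both replicates. The difference in lost share was 28.5 points among sites above the median score of all intergenic sites and 27.6 points among the others, while the difference in kept share was -17.3 points above that median and -8.80 points among the others. A kept summit was less frequent at far than at close sites in 6 of 6 mutant libraries, with differences of -23.9 to -1.96 points. In the *arp6-1* loss lists no such trend was seen, with 37.7% of the far sites and 41.6% of the close sites lost in both lists. The sign of that difference varied with score. In the replicates it was -7.93 and -4.66 points above the median score, and 8.64 and 9.76 points among the others. In *arp6-1 mbd9-3* the direction over all intergenic sites was the reverse of that in *mbd9-3*. There, 46.6% of the far sites and 61.4% of the close sites were lost in both lists. Per replicate the shares were 60.7% and 68.1% at the far sites, against 72.3% and 74.7% at the close sites. These groupings were chosen after earlier results were known and carry no test.

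**Figure D5:**
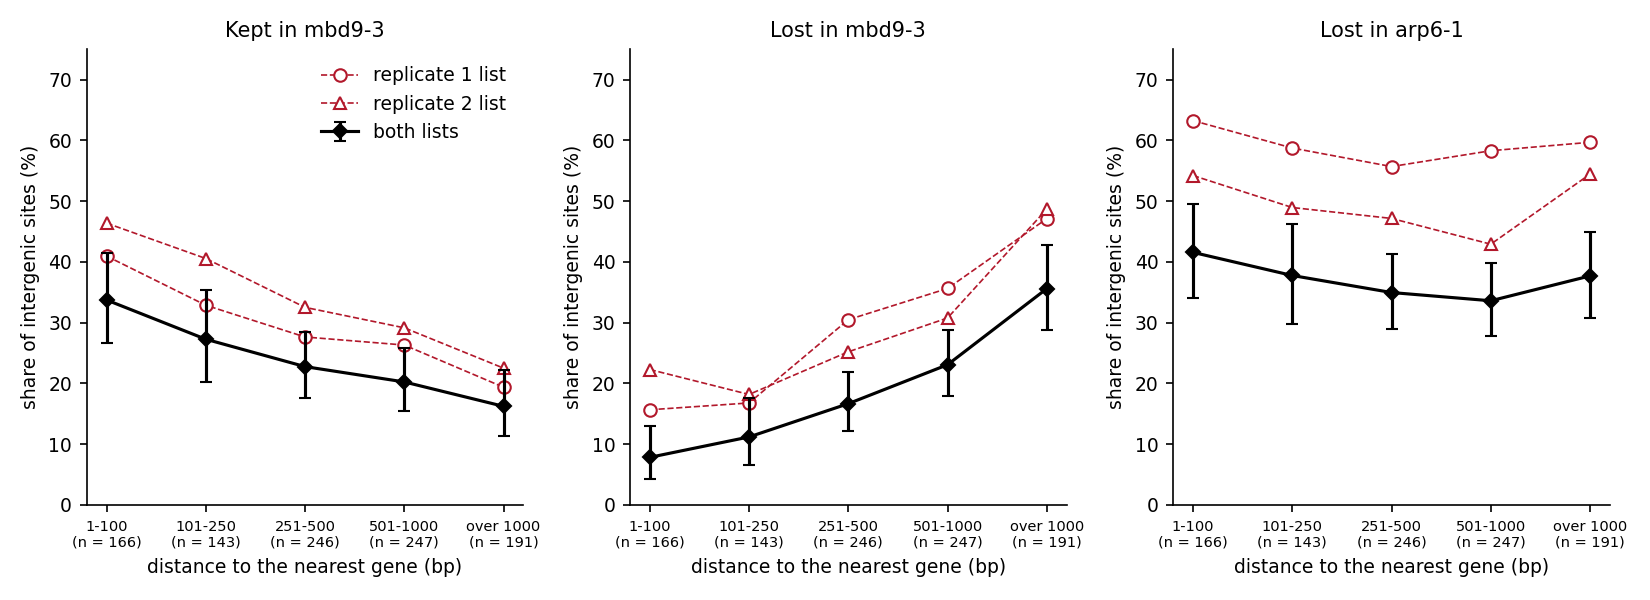
Share of intergenic sites (%) kept in *mbd9-3*, lost in *mbd9-3* and lost in *arp6-1* by distance to the nearest gene, for each replicate list (open symbols) and for both lists (black, with 95% exact intervals). Loss in *mbd9-3* in both lists climbs with distance, at 7.83% up to 100 bp and 35.6% over 1000 bp, while loss in *arp6-1* stays between 33.6 and 41.6%.

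The arrangement of the flanking genes showed smaller differences in the same readings. Before a start, 23.3% of sites were lost in both *mbd9-3* lists, against 15.0% after an end. Side and distance were mixed, since 126 sites before a start and 65 after an end lay over 1000 bp from a gene. Up to 100 bp from a gene the lost shares were 8% before a start and 7.58% after an end. Over 500 and up to 1000 bp they were 31.4% and 15.5%. The share lost in both *mbd9-3* lists was 26.3% in divergent gaps, 16.5% in tandem gaps and 16.3% in convergent gaps. Of the sites up to 500 bp before a protein-coding start, 14.1% of 270 were lost in *mbd9-3*, against 12.4% of 10566 genic sites in the first 500 bp of a protein-coding gene. The remaining 723 intergenic sites reached 21.7%. The kept share in *mbd9-3* was low on both sides of this line, with 25.6% before a start and 22.5% elsewhere, against 49.3% in the first 500 bp of genes. In the pericentromeric bins 27.7% of 47 sites were kept in *mbd9-3* and 25.5% were lost, against 23.2% and 19.3% on the arms.

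Further loss in the double mutant was rare. In the *arp6-1* over *arp6-1 mbd9-3* lists 2.92% and 4.63% of intergenic sites had a summit in the replicates, against 4.77% and 8.44% of genic sites and 4.69% and 8.26% of all common sites. In both lists there were 19 sites (1.91%, interval 1.16 to 2.97%), against 3.56% of genic sites and 3.48% of all common sites. With genic sites weighted by score, the genic share was 1.97%. All 19 had been kept in both *arp6-1* lists, which is 32.2% (20.6 to 45.6%) of the 59 sites kept there, against 23.3% of 2509 genic sites kept in *arp6-1*. The interval of the intergenic share contains the genic share. The further loss lists and the *arp6-1* over H3 lists share the *arp6-1* H2A.Z libraries, so their overlap is not an independent result.

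Single sites illustrate these patterns. They were picked by a fixed rule on their scores, so the scores are a description, and scores of different lists are not levels that can be compared between genotypes. The site of highest wild-type score was chr1:671635, which lies 26 bp after the end of *AT1G02965*, annotated as an uncharacterized protein. It scored 25.5 and 17.1 in the wild-type replicates. Over H3 it had a score of 31.3 in *mbd9-3* replicate 1 and no summit in replicate 2. It scored 14.6 and 17.8 in the *arp6-1* replicates and 2.94 in replicate 2 of *arp6-1 mbd9-3*, with none in replicate 1. It was in neither *mbd9-3* loss list and in both further loss lists, with 6.23 and 9.57. The site at chr5:14744668 lies 158 bp before the start of *AT5G37247*, and it scored 18.0 and 16.7 in wild type, 34.2 and 32.0 in *mbd9-3* and 6.39 and 8.97 in *arp6-1*. It was in neither *arp6-1 mbd9-3* list over H3. At chr3:5493959, 278 bp before the start of *AT3G16200*, the site was over H3 in replicate 2 alone in *mbd9-3* (9.22) and *arp6-1* (15.8), with 15.6 and 14.8 in wild type.

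The 3 sites kept in both *arp6-1 mbd9-3* lists all lay before a start. Of these, chr3:6474300 lies 410 bp before *ACT2*, which encodes an actin of vegetative tissue. It scored 6.84 and 22.0 in *arp6-1 mbd9-3*, against 4.06 and 19.2 in wild type. It was in replicate 2 of *mbd9-3* (11.6) but in no *arp6-1* list over H3, and it was in the *arp6-1* loss list of replicate 2 with 16.8. A site at chr3:11138313, between the divergent genes *AT3G29170* and *AT3G29173*, was the only one in all 6 mutant lists over H3, with 9.42 and 4.98 in *arp6-1 mbd9-3*, against 17.5 and 5.29 in wild type. It was nevertheless in both loss lists of *arp6-1 mbd9-3*, with 5.31 and 5.29. The site at chr1:7466165 is 1 bp from the start of *AT1G21320* and scored 2.60 and 4.64 in *arp6-1 mbd9-3*, against 8.94 and 8.24 in wild type.

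The strongest losses in *mbd9-3* without a remaining summit were at sites with a summit in no mutant over H3 list. The first, chr3:14689020, lies 38 bp before *AT3G42570*, annotated as a peroxidase family protein, in a gap of 5647 bp. Its loss scores were 12.3 and 12.7 in *mbd9-3*, and its wild-type scores over H3 were 14.2 and 5.89. It was also in both loss lists of *arp6-1* (8.44 and 7.43) and of *arp6-1 mbd9-3* (16.5 and 4.11). The next, chr3:5362425, lies 463 bp before *AT3G15870*, a fatty acid desaturase family gene, with loss scores of 11.9 and 12.4 in *mbd9-3*. This site was also in the replicate 1 loss list of *arp6-1* (7.26) and in both of *arp6-1 mbd9-3* (10.8 and 9.29). Its window holds CACGTG, the core of the G-box, which was found in 3.83% of intergenic windows, 3.72% of genic windows and 2.53% of all windows outside genes. The site at chr2:2121441, 187 bp after the end of *AT2G05655*, had loss scores of 9.73 and 11.1 in *mbd9-3* and was also in both loss lists of *arp6-1* and of *arp6-1 mbd9-3*.

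Sites with the strongest further loss had summits in both replicates of both single mutants, of which *arp6-1* shares its libraries with the further loss lists. At chr3:7387679, 579 bp after the end of *AT3G21080*, an ABC transporter-like gene, *mbd9-3* scored 25.1 and 28.7 over H3 and *arp6-1* 22.2 and 32.6, against 20.9 and 13.0 in wild type. No *arp6-1 mbd9-3* summit was near, and its further loss scores were 16.9 and 20.3. The site at chr5:9627548, 289 bp before the lncRNA gene *AT5G04385*, had further loss scores of 16.4 and 25.8. The site at chr4:9499018 lies 1253 bp after the end of *SNC1*, which encodes an immune receptor of the TIR-NBS-LRR class, and 394 bp after a misc_RNA gene. It scored 12 and 18.1 in *mbd9-3* and 13.4 and 22.2 in *arp6-1*, had no *arp6-1 mbd9-3* summit, and had further loss scores of 10.9 and 21.3. None of these 3 sites was in a loss list of either single mutant.

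Sites kept in *mbd9-3* and absent from both *arp6-1* lists over H3 were represented by chr3:21463032, chr1:5454109 and chr4:1273189. At chr3:21463032, 59 bp before *AT3G57960*, the scores were 5.43 and 12 in *mbd9-3* and 13.8 and 12.8 in wild type. It was in both loss lists of *arp6-1*, with 5.32 and 6.67, and in the replicate 2 loss list of *mbd9-3*, with 3.12. The site at chr1:5454109, 21 bp before *AT1G15850*, scored 4.19 and 10.3 in *mbd9-3* and was in neither *mbd9-3* loss list. The site at chr4:1273189, 443 bp before *AT4G02870*, annotated as a B3 domain protein, scored 8.10 and 6.71 in *mbd9-3* and was in its replicate 2 loss list, with 6.97.

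The 3 sites farthest from any gene had no summit in any mutant over H3 list. The farthest, chr1:11731278, lies 6840 bp from *AT1G32460* and 11290 bp from *NRT1.5*, which encodes a nitrate transporter. It scored 4.19 and 3.24 in wild type and was lost in both *mbd9-3* lists, with 7.67 and 3.76. It was also in the replicate 1 loss lists of *arp6-1* (4.31) and *arp6-1 mbd9-3* (4.33). Another, chr3:9326984, lies 4672 bp from the pseudogene *AT3G25630* and was in the replicate 2 but not the replicate 1 loss list of *mbd9-3*, with 2.51. It was also in the loss lists of *arp6-1* replicate 1 (3.75) and *arp6-1 mbd9-3* replicate 2 (2.29). The site at chr3:10603721 lies 4619 bp from a transcribed pseudogene and 4679 bp from *ABCB15*, an ABC transporter gene. It was likewise in the replicate 2 but not the replicate 1 loss list of *mbd9-3*, with 4.34. It was also in the replicate 2 loss list of *arp6-1* (3.86) and in both of *arp6-1 mbd9-3* (4.60 and 8.39).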

How the data were processed

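H2A.Z and H3 ChIP-seq libraries of 4 genotypes, with 2 replicates each, were used. The authors mapped reads to TAIR10 with Bowtie, keeping unique alignments. Duplicates were discarded with SAMtools, and MACS2 2.1.1 was run on every replicate (q value limit 0.01, extension size 200), without pooling. The deposited values are the −log10 of the q value of each summit in 16 lists, 8 over H3 and 8 between H2A.Z libraries. The lists hold no read counts, so the depth is unknown. How libraries of different genotypes were scaled is not given in the sources used here.

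Groups were taken from the sample labels. Genes were those of the TAIR10.1 annotation (37899 of any type), and 0 summits fell outside its chromosome lengths. Summits were joined within 200 bp. Kept and lost shares carry exact Clopper-Pearson 95% intervals. Intergenic and genic shares were compared over 6 mutant libraries by an exact sign-flip permutation test of 64 sign patterns. Genic shares were also weighted to deciles of the lower wild-type score. Sites named in the text were the 3 highest by wild-type score, kept score in *arp6-1 mbd9-3*, loss in *mbd9-3* without a remaining summit, further loss, wild-type score among those kept only in *mbd9-3*, and distance from a gene, plus sites up to 1000 bp before 14 chosen genes, of which there were 0. The intergenic sites, gene lists and groupings were chosen with earlier results of these data known. Matching and weighting were tested on simulated data. Sequences are from RefSeq TAIR10.1. Python 3.11.15, pandas 2.3.3, NumPy 2.4.6, SciPy 1.17.1 and matplotlib 3.10.9 were used. A text file of notes was not used here.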

Additional observations from a re-analysis of the deposited data

Results flagged for a closer look

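The difference between intergenic and genic sites in the share lost had opposite signs in different mutants, in every replicate. In *mbd9-3* intergenic sites exceeded genic sites by 8.92 and 13.0 percentage points. In *arp6-1* the difference was -17.1 and -15.3 points, and in *arp6-1 mbd9-3* it was -13.1 and -8.90 points. The means of *mbd9-3* and *arp6-1* thus lay 27.1 points apart, and those of *mbd9-3* and *arp6-1 mbd9-3* lay 22.0 points apart. With genic sites weighted by score the signs stayed, but the differences in *arp6-1 mbd9-3* shrank to -6.77 and -1.73 points. Weighted differences were 9.35 and 13.3 points in *mbd9-3*, and -12.0 and -10.3 points in *arp6-1*. These differences between genotypes were not tested, and all 3 comparisons share the wild-type libraries.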

How the results depend on the processing

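Over the mutant libraries, intergenic sites had the lower mean kept share under all 10 alternatives of site definition or weighting, with exact permutation p = 0.03125 each time. All alternatives used the same 6 mutant libraries, for which this is the smallest p. Leaving out 1 library in turn gave mean differences of -14.1 to -9.30 points, where 5 libraries cannot give a p below 0.0625. The higher lost share of intergenic sites in *mbd9-3* reversed in 1 of 10 alternatives, at wild-type scores of at least 10. The cause of this and of the other changes was not tested. Differences in lost share, the weighting of genic sites in the loss lists and the comparison by distance from a gene were added after seeing the data. No paired analysis was possible because each list already compares libraries of the same replicate number and the lists hold no value per library that could be fitted with a block. The depth of the libraries is unknown, so its limit on weak sites cannot be given.

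Values that moved by more than the spread between replicates were as follows, for both lists unless stated. With wild-type scores of at least 5 there were 358 sites, of which 45.5% were kept in *mbd9-3* and 0.559% in the double mutant, while 17.9% were lost in *mbd9-3*, 51.7% in *arp6-1* and 81.8% in the double mutant, and 4.19% had further loss. With scores of at least 10 there were 45 sites, of which 84.4% were kept in *mbd9-3*, 42.2% in *arp6-1* and 0% in the double mutant (0 of 45, which allows a share of up to 6.67%), while 6.67%, 62.2% and 97.8% were lost in the mutants in the same order and 15.6% had further loss. The intergenic minus genic difference in lost share was -15.9 points in *arp6-1* and -5.54 in the double mutant at scores of at least 5. At scores of at least 10 it was -1.55 points in *mbd9-3*, -12.01 in *arp6-1* and -0.0749 in the double mutant.

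Counting all sites outside protein-coding genes gave 2136 sites, with 36.0% and 0.421% kept in *mbd9-3* and the double mutant, lost shares of 14.2%, 44.1% and 62.1% in the same order of mutants, and differences from genic sites of 3.92, -13.1 and -10.2 points. Sites at least 200 bp from every gene had 0.137% kept in the double mutant, 23.8% and 54.0% lost in *mbd9-3* and the double mutant, and a difference of 13.6 points in *mbd9-3*. A joining distance of 100 bp gave 19.95% and 0.122% kept in *mbd9-3* and the double mutant and 54.5% lost in the double mutant, and 500 bp gave 28.8% and 0.433% kept and 20.8% and 61.8% lost in *mbd9-3* and the double mutant. Replicate 2 positions gave 0.2002% kept in the double mutant and 20.3% lost in *mbd9-3*, and requiring both positions in no gene gave 0.216% and 20.7%. Mutant summits with a score of at least 5 left 12.6% kept in *mbd9-3* and 0.101% in the double mutant. Differential summits with a score of at least 5 left 7.15%, 11.6% and 30.6% lost in the same order of mutants, with differences of 3.87 points in *mbd9-3* and -17.4 in *arp6-1*. Weighting by score gave -13.9 points in *arp6-1* and -7.54 in the double mutant. Of the sites kept in *arp6-1*, 32.2% had further loss.

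With 1 replicate list alone, the kept share was 28.7 to 33.2% in *mbd9-3*, 7.25 to 19.2% in *arp6-1* and 1.61 to 1.71% in the double mutant. The lost share was 29.6 to 30.5%, 48.9 to 58.8% and 68.8 to 70.2%, and further loss 2.92 to 4.63%. The difference in lost share was 8.92 to 13.0 points in *mbd9-3*, -17.1 to -15.3 in *arp6-1* and -13.1 to -8.90 in the double mutant. Between sites over 1000 bp and up to 100 bp from a gene it was 26.4 to 31.5 points for lost and -23.9 to -21.6 for kept in *mbd9-3*, and the kept difference was -8.80 points among sites of lower wild-type score.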

Other observations

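Few genes of any of the groups examined by annotated product had an intergenic site before their start. Of 27444 protein-coding genes, 475 (1.73%, exact Clopper-Pearson 95% interval 1.58 to 1.89%) had an intergenic site up to 1000 bp before the start, and 194 of these 475 (40.8%) also had a common site in the first 500 bp of the gene, against 37.2% of all protein-coding genes. Among 10 groups the highest share was 3.60% for ubiquitin genes (13 of 361, 1.93 to 6.08%), followed by 2.82% for cytochrome P450 genes (7 of 248). It was 2.33% for ribosomal protein genes (9 of 386), 1.37% for kinase genes (19 of 1388) and 0.870% for histone genes (1 of 115). None of 79 photosystem or chlorophyll genes had one (interval 0 to 4.56%). The interval of the ubiquitin genes lies above that of all genes, but it is 1 of 10 groups and was not tested. The 14 genes looked at singly, among them *FLC*, *MAF4*, *MAF5*, *ARP6*, *PIE1* and *MBD9*, had 0 such sites.

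The 4 sites in the gap between *BPEp* and *CW14* had no summit in any mutant list over H3, and the same held for the 4 sites between *CYP71A16* and *AT5G00580*. The first 4 were all in the replicate 2 loss list of *mbd9-3*, through 2 summits with scores of 3.12 and 6.73, and the second 4 were in neither of its loss lists.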
